A study of Mus musculus with 4 samples.

Results

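TTR, ENPP2, FOLR1, KL, AQP1, CLIC6, SLC4A5 and PRLR are 8 genes known from the epithelium of the choroid plexus, and every probe of the array whose gene symbol is one of them was taken. Of the 8 genes 7 had a probe, 17 probes in all, out of 45281 probes of 30854 gene symbols. No probe carries the symbol SLC4A5 in the table used here, so that gene, a sodium bicarbonate cotransporter, has no value. The RNA came from the cerebellum of untreated Swiss mice at postnatal day 7, dissected into anterior and posterior lobes, with 2 samples of each lobe and 1 Illumina mouse WG-6 array per sample. The labels give neither the sex of the mice nor whether the samples are from separate animals or pools, so the p-values below measure only the spread between these samples, which may be technical in part. The sex-linked genes given below differed between the 2 samples of each lobe, which were thus not of the same RNA. The study compared the lobes to find genes that differ between them, with a fold change over 1.2 and a p under 0.05 as its criterion, the p being taken here as unadjusted.

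The choroid plexus is a folded sheet of secretory epithelium that hangs into the ventricles of the brain, and one of these sheets lies in the roof of the fourth ventricle, against the underside of the cerebellum. Its cells make the cerebrospinal fluid by moving salts, bicarbonate and water, and they secrete carrier proteins into it, of which transthyretin, the product of TTR, is the best known. In bulk RNA fewer cells of a type cannot be told apart from less RNA per cell.

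On these arrays the signal of a probe is the mean brightness of its beads, here called intensity, and the detection p-value gives how many of the negative controls, as a share, reached that brightness. The median intensity was between 110.2 and 129.6 per array, and 21070 to 21574 probes per array had a detection p-value under 0.05, which is what detected means below. Intensities were quantile normalized between the 4 arrays and log2 transformed, and the 21726 probes detected on at least 2 arrays were tested with limma. Of the markers of cerebellar neurons, CBLN1 and ZIC1 were detected on every array, CBLN1 at intensities of 24667 to 27331 and ZIC1 at 8311 to 10698. Others of that list were dim. GABRA6 was at 111.0 to 150.4 and detected on 2 arrays. Of the 13 genes 9 were tested, and CBLN3, CALB1, ATOH1 and CAR8 were not.

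The genes did not share one lobe difference. After normalization TTR, CLIC6 and every probe of AQP1, FOLR1 and KL were highest on anterior replicate 2. The brightest ENPP2 probe was so by little, and the dimmer ENPP2 probes and the tested PRLR probes were highest on other arrays. TTR was bright on both arrays of replicate 2 and much dimmer on both arrays of replicate 1, in either lobe. CLIC6 and the brightest ENPP2 probe were lower in the posterior lobes and a dimmer PRLR probe was higher, each by less than 2-fold on the fitted scale. The brightest PRLR probe, at 0.20, did not pass the study's criterion (adjusted p = 0.640 by limma). FOLR1 and KL were detected on 1 array only, and AQP1 was near background. Of the 17 probes 8, of 5 genes, were tested, 4 were detected on 1 array and 5 on none. By limma 3 of the 8 tested probes, 37.5%, passed the study's criterion. The dimmer PRLR probe was on the higher, and CLIC6 and the brightest ENPP2 probe on the lower side in the posterior lobes. Of all tested probes 8.29% passed it, 716 as higher and 1086 as lower. None passed an adjusted p of 0.05 by limma, against 0.106% of all tested probes, and 3 member probes and 2185 of all tested probes had an unadjusted p under 0.05. That fit had no block for the replicate number. With such a block 2 member probes, TTR and CLIC6, passed the adjusted p by limma, as did 588 of all tested probes. By either rule, 0 of the member probes passed the methods' t-test. The intensities of the lobes did not overlap after normalization for 5 of the 8 tested probes, against 42.6% of all tested probes.

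**Figure D1:**
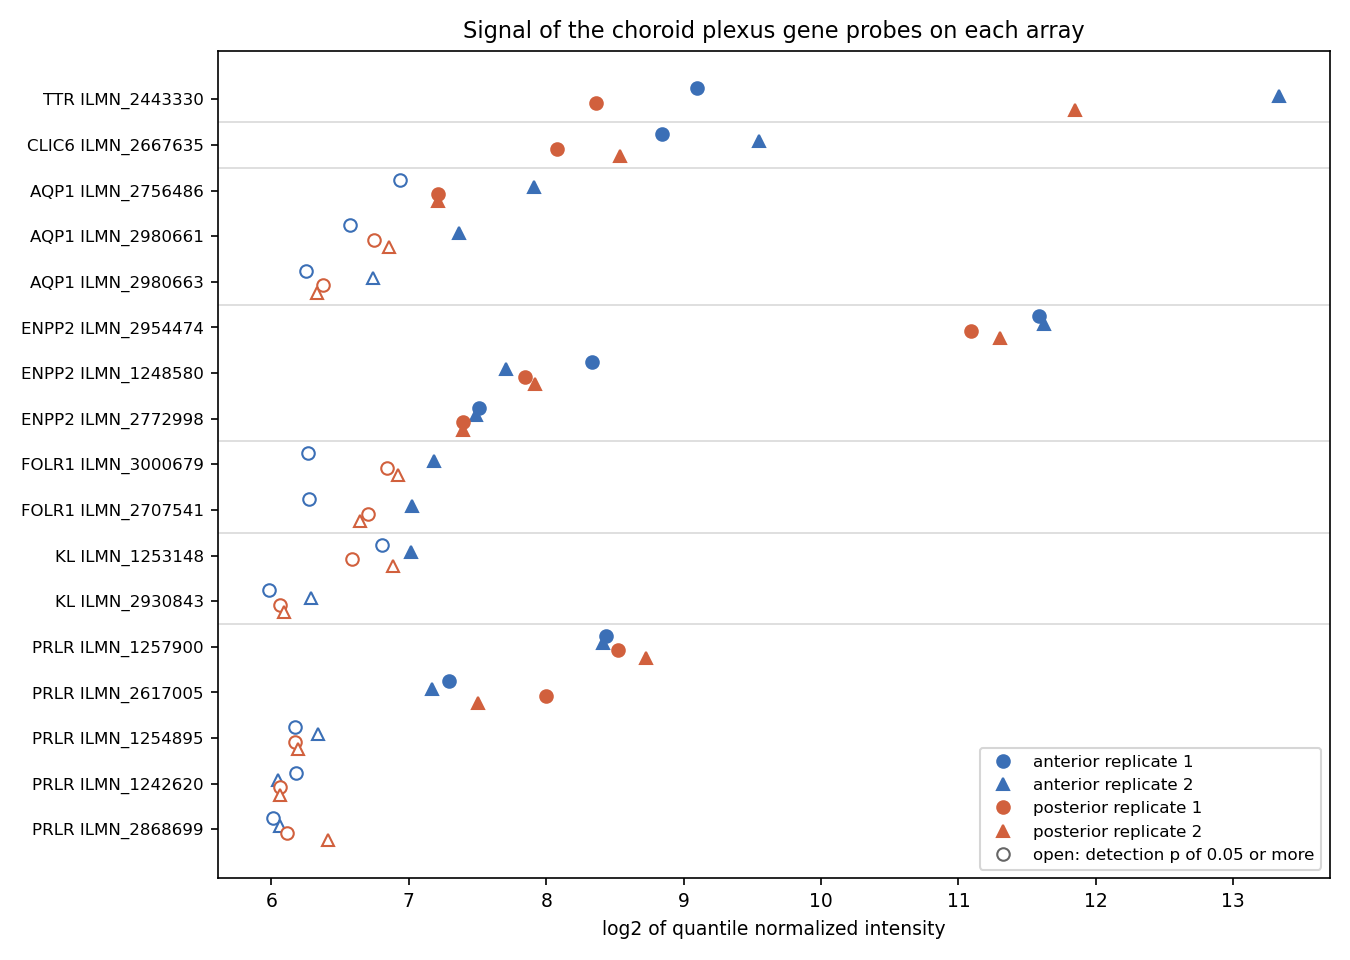
Log2 of the quantile normalized intensity (horizontal axis) of the 17 probes of the 7 genes (rows). Blue is anterior and orange posterior, circles are replicate 1 and triangles replicate 2, each point is 1 array, and open symbols have a detection p-value of 0.05 or more. The replicate 2 arrays of TTR stand at 13.34 and 11.85 and its replicate 1 arrays at 9.10 and 8.37, while no other probe is spread as widely.

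TTR, the carrier of thyroid hormone and of retinol-binding protein, has 1 probe on the array (ILMN_2443330). In the anterior lobes its intensity was 599.9 on replicate 1 and 9502 on replicate 2. In the posterior lobes it was 325.9 on replicate 1 and 3778 on replicate 2. Replicate 2 was therefore the bright array in both lobes, and within each replicate number the anterior array was brighter than the posterior one, so the lobes overlapped. The probe was detected on all 4 arrays, with 35 to 45 beads on each, and the standard error over beads was 20.0 on anterior replicate 1 and 319.4 on anterior replicate 2. In raw intensity replicate 2 was 15.8-fold over replicate 1 in the anterior and 11.6-fold in the posterior lobes.

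The anterior arrays of TTR averaged 11.22 ± 2.99 (log2, SD, n = 2) and the posterior arrays 10.11 ± 2.46 (n = 2). The lobe difference, posterior minus anterior, was -1.11 with a standard error of 1.60 (adjusted p = 0.845 by limma), and its 95% interval ran from -5.03 to 2.81. That interval takes no account of the replicate number, within which the difference was -0.73 for replicate 1 and -1.49 for replicate 2. Without the array of anterior replicate 2 the difference was 1.01, without that of posterior replicate 1 it was 0.63, without that of posterior replicate 2 it was -2.84, and without that of anterior replicate 1 it was -3.23 (adjusted p = 0.040 by limma). Over the 14 alternatives the adjusted p of TTR ran from 0.003 to 1.00.

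The difference of TTR between the replicate numbers was among the widest on the array. It was 4.24 on the log2 scale between the anterior and 3.48 between the posterior arrays. Counting TTR itself, 5 tested probes had a mean replicate difference of at least that size in either direction, and the SD of the difference over all tested probes was 0.318 between the anterior and 0.203 between the posterior arrays. Only 4 tested probes were more than 3 log2 units higher on replicate 2 in both lobes, and another 4 were as far lower.

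**Figure D2:**
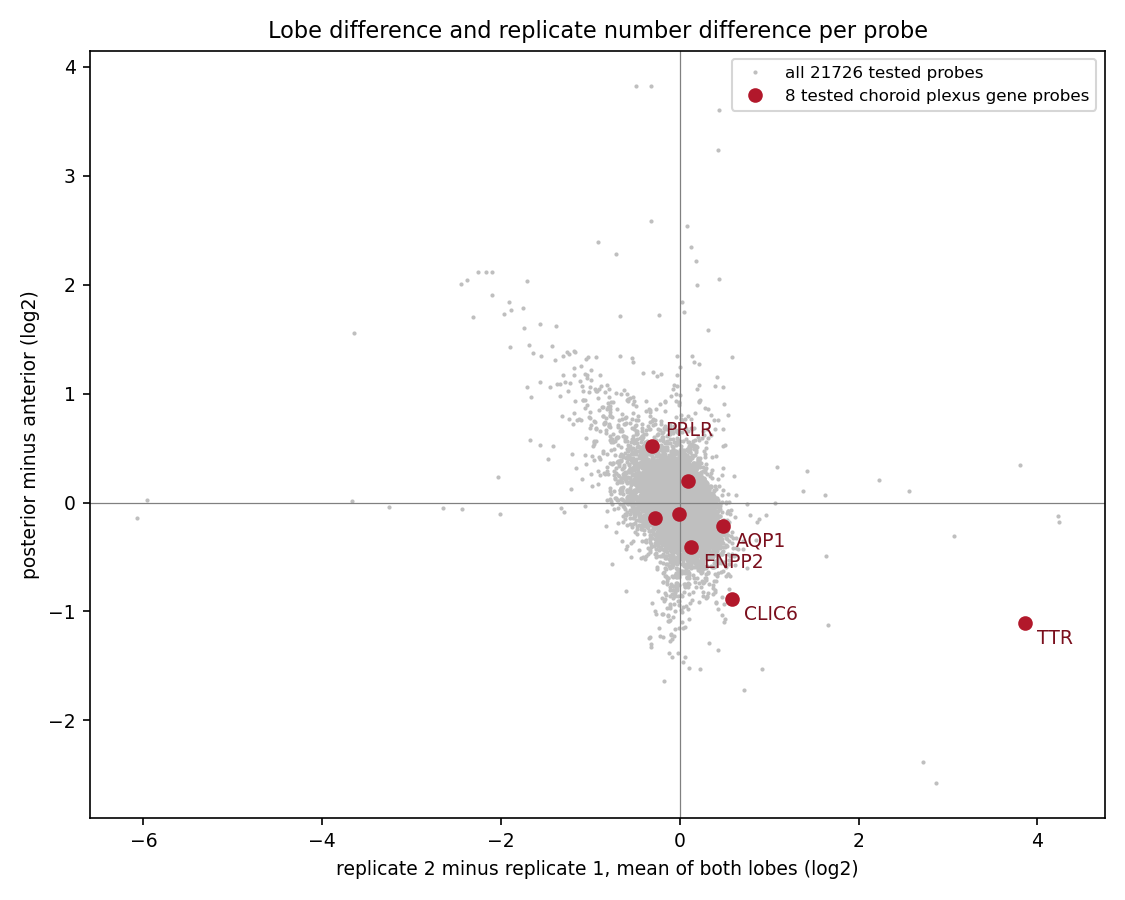
Lobe difference (posterior minus anterior, log2, vertical axis) against the difference between replicate numbers (replicate 2 minus replicate 1, mean of both lobes, log2, horizontal axis) of all 21726 tested probes in grey, with the 8 tested probes of the choroid plexus genes in red. TTR lies far to the right at 3.86 on the horizontal axis and -1.11 on the vertical one, whereas the other 7 lie between -0.31 and 0.58 on the horizontal axis.

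None of the 5 probes nearest to TTR by distance was of a choroid plexus gene of the lists used here. Likeness was measured as the Euclidean distance between the log2 signals of 2 probes over the 4 arrays, each centred on its own mean, and the 5 nearest of all tested probes were named. The distance was not scaled by the size of the changes. A probe with small changes could thus not come near TTR, even with the same order of arrays. They were a probe each of ENPP5 (distance 1.08), DIRAS2 (1.10), EPB4.1L5 (1.13), the Y-linked EIF2S3Y (1.53) and ACTB (1.71). The ENPP5 probe (ILMN_1217118) had intensities of 137.6 and 2462 on the anterior arrays of replicates 1 and 2, and of 129.8 and 2245 on the posterior ones. The DIRAS2 probe (ILMN_2505845) had 570.8 and 8510 on the anterior and 426.0 and 8825 on the posterior arrays. In these probes, as in TTR, both replicate 2 arrays were brighter than both replicate 1 arrays. The ACTB probe (ILMN_2588055) differed from TTR in that its posterior replicate 2 array, at 760.2, was not far above its anterior replicate 1 array, at 649.4.

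Other probes of the same genes did not all follow. A second DIRAS2 probe (ILMN_2926480) had intensities between 22369 and 25495 on the 4 arrays. Of the other 4 ACTB probes, ILMN_2846865 rose from 735.2 to 6198 between the anterior replicates and from 154.1 to 832.6 between the posterior ones. The ACTB probes ILMN_2698799 and ILMN_2617433 had differences between the replicate numbers, replicate 2 minus replicate 1, of -0.16 to -0.02 on the log2 scale in the lobes, and ILMN_1377923 had 0.59 for the anterior and -0.24 for the posterior arrays. TTR has no second probe to set beside its own.

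The replicate numbers also differed in the genes of the sex chromosomes. XIST, the RNA that silences one X chromosome in females, had intensities of 9189 and 8040 on the anterior and posterior arrays of replicate 1 at its brightest probe (ILMN_2475156), and of 121.8 and 116.4 on those of replicate 2. The Y-linked DDX3Y (ILMN_2899599) went the other way, with 751.3 and 757.4 on replicate 1 and 4005 and 4481 on replicate 2. It was detected on all 4 arrays. The Y-linked EIF2S3Y (ILMN_1241001) and JARID1D (ILMN_1224210) were detected on both replicate 2 arrays and on neither replicate 1 array. UTY (ILMN_2907351), also Y-linked, was detected on anterior replicate 1 as well. The part of this difference between the replicate numbers in the level of TTR was not tested.

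**Figure D3:**
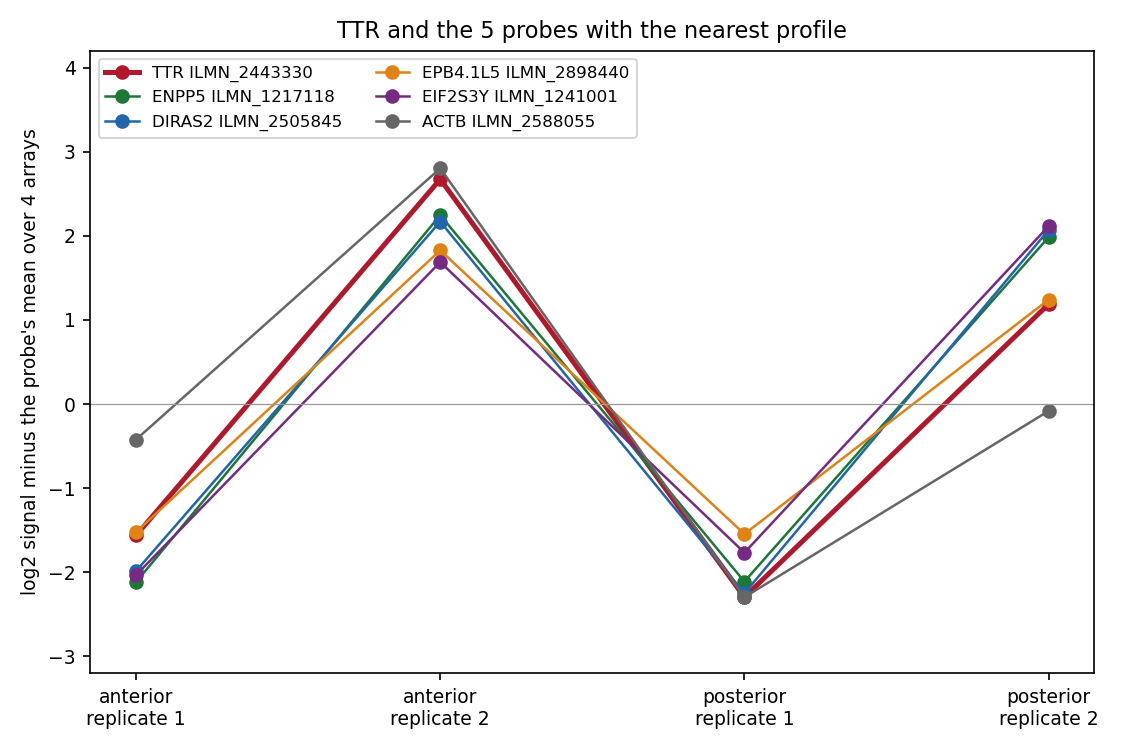
Log2 signal minus the mean of the probe over the 4 arrays (vertical axis) on each array (horizontal axis), for TTR (thick red line) and the 5 probes whose profile is nearest to it. The lines only join the points of a probe. All 6 probes are highest on anterior replicate 2 or posterior replicate 2 and lowest on a replicate 1 array, and ACTB has the widest gap between the lobes.

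The other tested choroid plexus genes differed far less between the arrays. Over the brightest tested probe of each, CLIC6 was the nearest to TTR (rank 28 of the tested probes, distance 3.29). AQP1 (rank 111, 3.49), ENPP2 (rank 2449, 3.83) and PRLR (rank 10730, 4.02) followed. All were far from TTR beside the 5 nearest probes, at 1.08 to 1.71. With changes as small as theirs they could not come near TTR by this unscaled distance, whatever their order of arrays. CLIC6, an intracellular channel protein of the CLIC family that marks secretory epithelia, was detected on all 4 arrays by its 1 probe (ILMN_2667635). Its intensities were 503.9 and 699.8 on the anterior arrays of replicates 1 and 2, and 268.1 and 372.2 on the posterior ones. Both anterior arrays were brighter than both posterior ones. As with TTR, replicate 2 was the brighter array in each lobe and anterior the brighter lobe within each replicate number, but replicate 2 was only 1.39-fold over replicate 1. The anterior arrays averaged 9.20 ± 0.50 (log2, SD, n = 2) and the posterior arrays 8.31 ± 0.33 (n = 2). The lobe difference was -0.89 with a standard error of 0.27, which is 1.85-fold lower in the posterior lobes (unadjusted p = 0.017 and adjusted p = 0.386 by limma), with a 95% interval from -1.55 to -0.23. It thus passed the study's criterion and not the adjusted p. Without the array of posterior replicate 1 it did not pass the criterion, and without that of anterior replicate 1 its adjusted p was 0.001 by limma with a difference of -1.25, in a range from 0.001 to 0.999 over the alternatives.

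The relatives of CLIC6 on the array did not move with it. CLIC4 was at a lobe difference of 0.02 (adjusted p = 0.957 by limma) and CLIC1 at 0.24 (adjusted p = 0.511), and 0 of the 2 tested CLIC genes passed the criterion. CLIC3 and CLIC5 were not detected on enough arrays to be tested.

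AQP1 forms the water channel in the apical membrane of the plexus epithelium. Its brightest probe (ILMN_2756486) had intensities of 131.2 and 220.1 on the anterior arrays of replicates 1 and 2, and of 148.4 and 151.0 on the posterior ones. It was detected on 3 arrays, and the lobes overlapped, since the anterior arrays were the lowest and the highest of the 4. The lobe difference was -0.21 with a standard error of 0.30 (adjusted p = 0.840 by limma), and its 95% interval ran from -0.94 to 0.52. Without anterior replicate 1 it was -0.69 (adjusted p = 0.007 by limma, in a range from 0.007 to 1.00 over 12 alternatives), and without anterior replicate 2 it was 0.28. The probe ILMN_2980661 was detected on anterior replicate 2 alone, at an intensity of 149.8 against 101.2 to 118.1 on the other arrays, and the third, ILMN_2980663, was detected on no array.

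Of the other aquaporins 4 were tested and none passed the criterion. AQP4, the water channel of astrocyte endfeet, was at intensities of 15270 to 21280 with a lobe difference of -0.25 (adjusted p = 0.452 by limma). AQP11, AQP9 and AQP5 were at differences between -0.08 and 0.08.

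FOLR1, the folate receptor through which the plexus passes folate into the cerebrospinal fluid, has 2 probes. ILMN_3000679 had intensities of 81.0 and 131.2 on the anterior arrays of replicates 1 and 2, and of 114.9 and 123.5 on the posterior ones. ILMN_2707541 had 81.3 and 117.8 on the anterior and 104.5 and 101.8 on the posterior arrays. Both were detected on anterior replicate 2 alone and were lowest on anterior replicate 1, so neither was tested. KL encodes klotho, a coreceptor for FGF23 that the plexus and the kidney make. Its probe ILMN_1253148 had 119.0 and 116.9 on the anterior and 96.0 and 120.5 on the posterior arrays, and a detection p-value of 0.049 on anterior replicate 2 was its only one under 0.05. The other KL probe, ILMN_2930843, was between 65.9 and 72.8 and detected on no array. For these 2 genes the arrays gave a signal close to that of the negative controls, so a lobe difference was not detectable.

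Around FOLR1, 7 genes of folate handling were tested. SHMT1, which moves one-carbon units between serine and folate, passed the criterion with a lobe difference of 0.33 (adjusted p = 0.332 by limma). SLC46A1, the folate transporter that works beside FOLR1 in the plexus, was at -0.28 (adjusted p = 0.512) and SLC19A1, the reduced folate carrier, at 0.04. Around KL, the FGF receptors FGFR1 and FGFR2 were tested and neither passed the criterion. FGFR1 was at -0.29 (adjusted p = 0.621 by limma) and FGFR2 at 0.03, while FGFR3, KLB, FGF15, FGF21 and FGF23 were not tested.

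ENPP2 encodes autotaxin, a secreted enzyme that makes lysophosphatidic acid, and it is known from oligodendrocytes as well as from the plexus. Its 3 probes were detected on all 4 arrays. The brightest, ILMN_2954474, had intensities of 3323 and 2931 on the anterior arrays of replicates 1 and 2, and of 2119 and 2581 on the posterior ones. Both anterior arrays were brighter than both posterior arrays, and the replicate numbers differed little, by 0.04 on the log2 scale between the anterior and 0.21 between the posterior arrays. The anterior arrays averaged 11.61 ± 0.03 (log2, SD, n = 2) and the posterior arrays 11.20 ± 0.15 (n = 2). The lobe difference was -0.41 with a standard error of 0.10, which is 1.33-fold lower in the posterior lobes (unadjusted p = 0.006 and adjusted p = 0.290 by limma), with a 95% interval from -0.65 to -0.17. Like CLIC6, it failed the criterion without posterior replicate 1, and without anterior replicate 1 its adjusted p was 0.024 by limma at a difference of -0.42, in a range from 0.024 to 0.999 over the alternatives.

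The dimmer ENPP2 probes had differences of the same sign and smaller size. ILMN_1248580 had intensities of 354.2 and 191.2 on the anterior and 227.8 and 241.6 on the posterior arrays, with a lobe difference of -0.14 (adjusted p = 0.851 by limma) and a 95% interval from -0.67 to 0.38. Its anterior arrays were the highest and the lowest of the 4, and without anterior replicate 1 the difference was 0.17, whereas without anterior replicate 2 it was -0.46 and passed the criterion. ILMN_2772998 had 198.6 and 162.6 on the anterior and 168.2 and 169.7 on the posterior arrays, with a difference of -0.11 (adjusted p = 0.743) and an interval from -0.35 to 0.14.

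Markers of oligodendrocytes moved in the direction of ENPP2. All 11 tested genes of that list were lower in the posterior lobes, 10 passed the criterion and 4 the adjusted p by limma, with a median difference of -0.86 against 0.00 over all tested probes. MAG, an adhesion protein of myelin, was at -0.99 (adjusted p = 0.015) and MOBP, a protein of compact myelin, at -1.14 (adjusted p = 0.015). The summed normalized intensity of the list was between 116926 and 118795 on the anterior and between 77256 and 82689 on the posterior arrays. The part of these markers in the lobe difference of ENPP2 was not tested.

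A list of the lysophosphatidic acid pathway also held relatives of ENPP2 by sequence, of which ENPP1, ENPP4, ENPP5 and ENPP6 were tested. Of the 12 tested genes of this list, ENPP2 left out, 5 had a positive and 7 a negative lobe difference, and 1 passed the criterion. It was the phosphatase PPAP2C, which breaks the lipid down, at -0.33 (adjusted p = 0.337 by limma). The receptor LPAR3 was at -0.19 (adjusted p = 0.596) by its brighter probe, and at -0.39 (adjusted p = 0.337), past the criterion, by a dimmer one under the older symbol EDG7, detected on 2 arrays. The receptor EDG2 was at 0.00 (adjusted p = 0.994), with intensities of 544.0 to 771.4. ENPP5, a relative of ENPP2 by sequence, is the gene of this list with the profile of TTR.

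PRLR, the prolactin receptor, which is abundant in the plexus and signals through JAK2 and STAT5, has 5 probes, and they disagree in level. ILMN_1257900 had intensities of 380.7 and 313.5 on the anterior arrays of replicates 1 and 2, and of 362.4 and 425.8 on the posterior ones. Its lobe difference was 0.20 with a standard error of 0.13 (adjusted p = 0.640 by limma), and the 95% interval ran from -0.12 to 0.51. ILMN_2617005 had 169.5 and 129.9 on the anterior and 252.6 and 182.3 on the posterior arrays. Both posterior arrays of this probe were brighter than both anterior ones, and replicate 1 was the brighter array in each lobe, the opposite of TTR. The anterior arrays averaged 7.23 ± 0.08 (log2, SD, n = 2) and the posterior arrays 7.75 ± 0.35 (n = 2). The lobe difference was 0.52 with a standard error of 0.18, which is 1.43-fold higher in the posterior lobes (unadjusted p = 0.028 and adjusted p = 0.432 by limma), with a 95% interval from 0.08 to 0.96. It did not pass the criterion without posterior replicate 1, where the difference was 0.27. The probes ILMN_1254895, ILMN_1242620 and ILMN_2868699 were between 62.3 and 86.3 and detected on no array.

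RefSeq gives PRLR 3 starts of transcription in the mouse assembly GRCm38.p6, and the table does not say which transcripts its 5 probes match. The 120 bases before each start are shown, all on the plus strand, so that the starts can be told apart. Capitals mark a match to TTCNNNGAA, the palindromic motif of STAT factors, which reads the same on both strands.
PRLR start 1, chr15:10177118-10177237: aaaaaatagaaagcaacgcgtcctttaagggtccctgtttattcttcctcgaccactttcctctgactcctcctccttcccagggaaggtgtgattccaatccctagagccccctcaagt
PRLR start 2, chr15:10223786-10223905: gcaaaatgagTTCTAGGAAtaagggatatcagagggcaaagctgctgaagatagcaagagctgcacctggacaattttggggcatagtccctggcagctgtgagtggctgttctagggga
PRLR start 3, chr15:10293531-10293650: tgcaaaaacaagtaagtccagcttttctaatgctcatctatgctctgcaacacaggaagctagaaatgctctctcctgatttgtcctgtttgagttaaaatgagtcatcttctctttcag
Only the stretch of the second start holds the motif, beginning 110 bases before the start, as do 3.15% of the 32851 stretches of this length in the table. TAATCC, a motif of OTX factors, was searched on both strands and is in none of the 3, against 2.84% of the stretches. A match is a run of letters and no measure of binding. The table has 1 entry each for KL, AQP1 and SLC4A5 and none for TTR, ENPP2, FOLR1 and CLIC6.

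Of the genes around PRLR, 7 were tested, 5 of them at a positive lobe difference, and none passed the criterion. The kinase JAK2 was at -0.03 (adjusted p = 0.962 by limma) and STAT5A at 0.17 (adjusted p = 0.585). SOCS2 and CISH, which prolactin signalling induces in many tissues, were at 0.13 and 0.07. The related receptor GHR was at 0.25 (adjusted p = 0.544), and PRL, the hormone itself, was not tested.

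SLC4A5 has relatives that carry bicarbonate, and these were listed together with the carbonic anhydrases. Of 12 tested genes of this list 3 passed the criterion. The anion exchanger SLC4A3 was at -0.44 (adjusted p = 0.245 by limma) and carbonic anhydrase CAR2 at -0.30 (adjusted p = 0.437), while CAR4 was at 0.31 (adjusted p = 0.420). SLC4A2, the exchanger of the basolateral side of the plexus, was at 0.04. SLC4A10, another bicarbonate transporter of the family, was not detected on enough arrays to be tested.

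Of the genes that handle the ligands of TTR 6 were tested, 5 at a positive and 1 at a negative lobe difference. The criterion was passed by 3, all as higher in the posterior lobes. The retinoic acid-binding protein CRABP2 passed it at 0.82 (adjusted p = 0.146 by limma). CRABP2 was detected on the posterior arrays alone, at intensities of 171.0 and 217.4 against 116.0 and 99.6 on the anterior ones. It was thus tested only through the lobe where it was high. STRA6, the receptor for RBP4, passed the criterion at 0.36 (adjusted p = 0.452 by limma). The thyroid hormone receptor THRA was at -0.47 (adjusted p = 0.504), and RBP4, which TTR binds in plasma, was detected on no array.

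A longer list of 40 genes known from the choroid plexus was set beside the 8. Of them 24 were tested, 8 passed the criterion as higher and 1 as lower in the posterior lobes, and 1 passed the adjusted p. That one was OTX2, a homeobox gene on which the plexus depends and which the developing cerebellum itself also expresses, at intensities of 351.3 and 262.0 on the anterior and 4936 and 3689 on the posterior arrays, with a lobe difference of 3.82 and a standard error of 0.18 (adjusted p = 0.015 by limma). Both posterior arrays of OTX2 were far brighter than both anterior ones, and replicate 1 was the brighter array in each lobe. SLC13A4, a sulfate transporter found in the plexus and in the meninges, was at 1.34 (adjusted p = 0.201). MSX1 was at 0.75, IGF2 at 0.47 and IGFBP2 at 0.46, with adjusted p-values of 0.355, 0.329 and 0.335 by limma. CLIC6 and the brightest ENPP2 probe passed the criterion as lower in the posterior lobes. They thus stood on the other side from 8 of the 9 genes of the longer list past it, the exception being CAR2 at -0.30. Genes of the longer list, such as OTX2 and SLC13A4, are not all particular to the plexus. The part of other cell types in their lobe differences was not tested. The median lobe difference was -0.41 over the 5 tested members, 1 probe per gene, and 0.06 over the longer list, against 0.00 over all tested probes.

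The markers of the longer list differed in level. CLDN2 at 168.8 to 277.1, CALML4 at 185.3 to 238.7 and the gene of probe ILMN_1249000 at 495.1 to 693.0 were detected on all 4 arrays. Others were dim. KCNE2 was between 86.6 and 136.1 and SOSTDC1 between 91.6 and 157.7, each detected on 1 array, HTR2C and F5 were detected on no array, and KCNJ13 and TMEM72 have no probe under these symbols in the table used here. In replicate number 15 of the 24 tested genes of the longer list were higher on replicate 2 in both lobes, as were 4 of the 8 tested probes of the members, against 32.5% of all tested probes. These were TTR, CLIC6, AQP1 and the brightest ENPP2 probe. The list's difference was small beside that of TTR, with a median of 0.15 on the log2 scale.

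**Figure D4:**
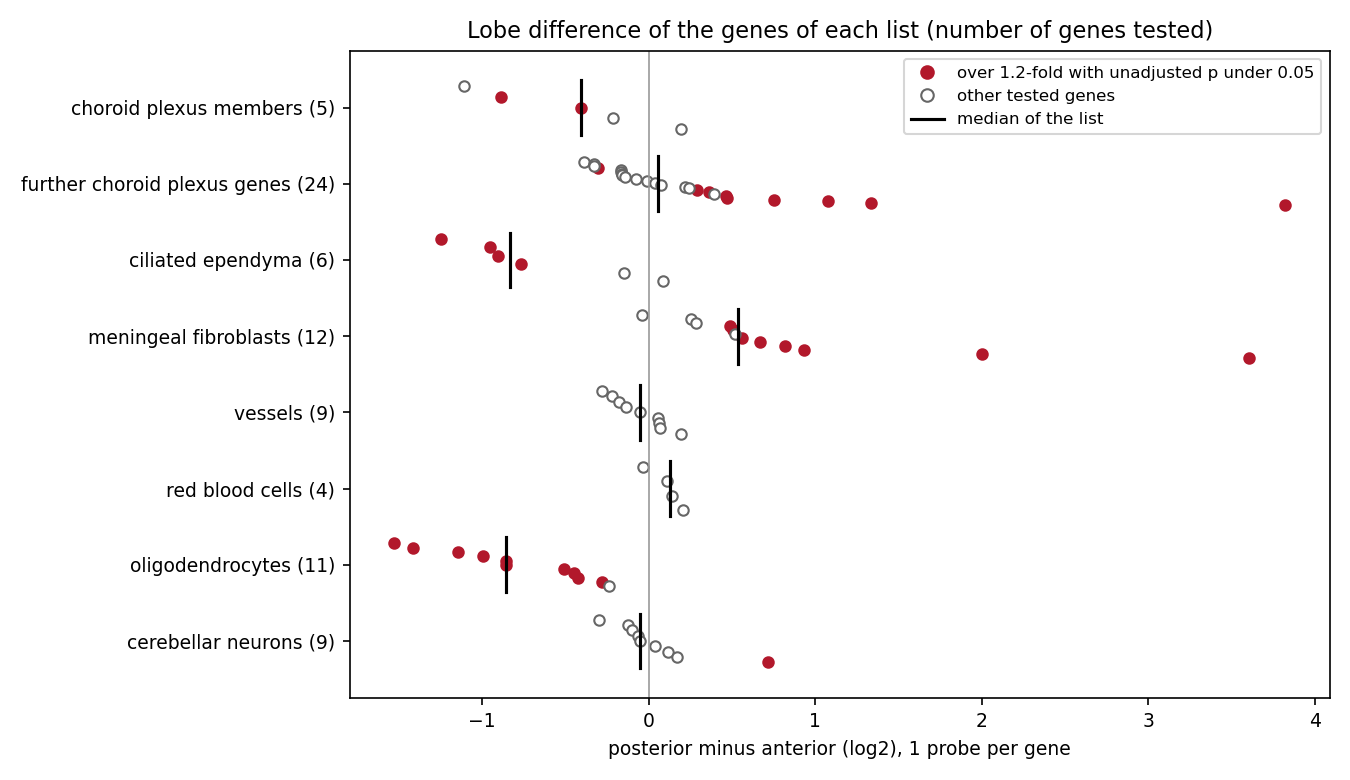
Lobe difference (posterior minus anterior, log2, horizontal axis) of the tested genes of 8 lists (rows, with the number of genes tested), each point being 1 gene at its brightest tested probe. Red points passed 1.2-fold with an unadjusted p under 0.05 by limma, open points did not, and black bars are medians. The members have a median of -0.41, the longer choroid plexus list of 0.06 with OTX2 at 3.82, ciliated ependyma of -0.84, meningeal fibroblasts of 0.54 and oligodendrocytes of -0.86.

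Markers of tissues that lie next to the plexus differed between the lobes too. Of the ciliated ependyma, which lines the ventricles, 6 genes were tested and 4 passed the criterion, all lower in the posterior lobes. DYNLRB2, a light chain of dynein, was at -1.24 (adjusted p = 0.160 by limma) and SPAG6, a protein of the ciliary axoneme, at -0.95 (adjusted p = 0.097), while FOXJ1, the regulator of motile cilia, was at 0.09 (adjusted p = 0.807). Their summed normalized intensity was between 6779 and 7358 on the anterior and between 3805 and 4691 on the posterior arrays. Of the meningeal fibroblasts 12 genes were tested, 8 passed the criterion and 3 the adjusted p, all higher in the posterior lobes. Among the 8 was CRABP2, which was detected on the posterior arrays alone. PTGDS, which makes prostaglandin D2, was at 3.61 (adjusted p = 0.015), the proteoglycan OGN at 2.00 (adjusted p = 0.035) and DCN, another proteoglycan, at 0.93 (adjusted p = 0.024). Their summed normalized intensity was between 7755 and 8686 on the anterior and between 15186 and 18131 on the posterior arrays.

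In replicate number the lists differed. The summed normalized intensity of the ependymal list was highest on anterior replicate 2 and lowest on posterior replicate 2, with a median difference, replicate 2 minus replicate 1, of -0.09. The fibroblast sum was higher on replicate 2 in both lobes, as were 8 of its 12 tested genes, with a median difference of 0.23 against 3.86 for TTR. The markers of vessels and of red blood cells, with 9 and 4 genes tested, had none past the criterion. The part of these tissues in the values of CLIC6, ENPP2, PRLR and TTR was not tested.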

How the data were processed

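Anterior and posterior cerebellar RNA, 2 samples each, was hybridized to Illumina mouse WG-6 v2.0 arrays. Per the file headers, the authors exported with GenomeStudio 1.9.0, its normalization off, each probe's mean intensity over beads with its SD, its bead number and a detection score. The score is a fraction, deposited as 1 minus the detection p-value. The deposited intensities carry no background subtraction, and 16 further columns were not used. Array columns were assigned through the sample numbers in the labels.

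Quantile normalization, a floor of 1 and the log2 were applied in R 4.3.3, the floor and the log base being those of the study's methods. Probes detected (p under 0.05) on 2 or more of the 4 arrays were fitted with limma 3.58.1 (lmFit, eBayes with an intensity trend), posterior minus anterior, with Benjamini-Hochberg adjustment over all of them. The fit was tested on simulated data. With 2 arrays a lobe the smallest two-sided p of an exact permutation test is 0.33, and the number of arrays limits the precision.

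The text names every probe of the 8 genes, genes of the lists past 1.2-fold with p under 0.05 or from lists of at most 12 tested genes, and the 5 probes nearest to TTR. For a list the brightest tested probe stands for a gene, and an older symbol was counted with the RefSeq gene it belongs to. Some names lie outside this rule and were chosen after their values were seen. They are CBLN1, ZIC1, GABRA6, XIST, DDX3Y, JARID1D, UTY, further probes of ACTB and DIRAS2, and single genes of longer lists at no criterion. The genes and lists were chosen with earlier results of these data known. The 14 alternatives were 2 background or scaling methods (neqc, cyclic loess), scaling by the 75th percentile, no normalization, 3 filters, no trend, a block for the replicate number, the methods' t-test, and each array left out. Upstream sequences come from a RefSeq table of GRCm38.p6, and no genome coordinates of the probes were used. The values of 1 gene of the lists are not reported here.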

Additional observations from a re-analysis of the deposited data

How the results depend on the processing

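The lobe differences of the 8 tested probes kept their sign under 14 alternatives, of which AQP1 had no value under 2 filters and PRLR ILMN_2617005 none under 1, except when an array was left out. The difference of TTR then ran from -3.23 to 1.01, of ENPP2 ILMN_1248580 from -0.46 to 0.17, of AQP1 from -0.69 to 0.28, of CLIC6 from -1.25 to -0.54 and of ENPP2 ILMN_2954474 from -0.51 to -0.30. With an array left out, probes of the members past an adjusted p of 0.05 ran from 0 to 4 and those past the 1.2-fold criterion from 0 to 5, and over all tested probes these counts, again with an array left out, ran from 0 to 2538 and from 766 to 4677. Among these fits the lowest count of members past the criterion came without posterior replicate 1 and the highest of either count without anterior replicate 1. With a lone array in a lobe limma takes its spread from the other lobe. The methods' t-test gave 0 member probes and 741 of all past the criterion and 0 past the adjusted p. Of all probes, 123 passed the adjusted p with no normalization, 73 with no filter and 13 with no intensity trend, against 23. After the shift to a common 75th percentile 53.5% of the probes past the criterion were higher in the posterior lobes, against 39.7%. The labels give the lobes the same replicate numbers without saying that they mark an animal, and the replicate differences of the lobes correlated at r = 0.46 over the tested probes. With the replicate block TTR stood at -1.11 (standard error 0.15, adjusted p = 0.003 by limma) and CLIC6 at -0.89 (adjusted p = 0.004), so 2 member probes passed the adjusted p, with 588 of all tested probes, and 2818 passed the criterion. Dim probes limit FOLR1, KL and AQP1.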
